A study of Mus musculus with 36 samples.

Results

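The genes described here were 10 genes of de novo lipogenesis, the synthesis of fatty acids from carbohydrate carbon: Acly, Me1, Acaca, Fasn, Elovl6, Scd1, Scd2, Srebf1, Mlxipl and Thrsp. They were chosen by name and were found among 55536 genes by matching each identifier in the count files to its GENCODE M21 symbol. All 10 were listed in each of 36 libraries, and 9 of them passed the filter on low counts. Mlxipl did not pass it, so its counts are given without a test.

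The libraries held RNA from brown pre-adipocyte lines of the mouse that came from a single wild-type clone in which Rxra, the gene of the retinoid X receptor RXRα, had been disrupted with CRISPR. RXRα is a nuclear receptor that pairs with PPARγ, the factor that drives fat cell differentiation. A pair of monoclonal Rxra-/- lines, clones 48 and 66, received by retrovirus a cDNA of the wild-type receptor (RxraWT) or of a receptor in which the serine that insulin signalling phosphorylates was replaced by alanine (RxraSA, genotype S22A in the labels). Days 0, 2 and 6 of differentiation were sampled in triplicate for every combination of clone and Rxra form, so that each genotype had 6 libraries a day and each day had 12.

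Every group shared the disrupted Rxra gene, the retroviral vector and a medium with insulin and triiodothyronine. Dexamethasone, IBMX and indomethacin were added from day 0 to day 2 only, so the days also differ in exposure to them. Cells without any RXRα were not among these libraries. Each clone arose from 1 cell, and clone 48 was sequenced in library pool 1 and clone 66 in pool 2, so a difference between clones cannot be told apart from a difference between pools. The deposited description calls the replicates technical and the study's methods call them independent, so the p-values measure the spread between these libraries, which may be technical.

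Total counts lay between 11351078 and 24349263 a library, with a median of 18338726. Rxra was counted without telling apart the forms or any transcript of the disrupted gene itself. It was present in all libraries, at 92.6 to 233 CPM (counts per 1000000 counts, scaled by TMM) at day 0, 400 to 712 at day 2 and 182 to 347 at day 6. All 6 adipocyte markers, among them Adipoq, Plin1, Fabp4 and Pparg, were higher at day 6 than at day 0, and their summed level rose from a median of 148 CPM at day 0 to 7780 at day 6. Of 6 brown adipocyte markers 3 were tested and were higher at day 6, but Ucp1, the defining marker of the active brown adipocyte, stayed between 0.0892 and 0.307 CPM at day 6. Of 14 markers of macrophages, endothelium, skeletal muscle and liver, 5 passed the filter and all 5 were higher at day 6 than at day 0, with a summed level of 10.2 to 15.9 CPM at day 0, 5.14 to 7.32 at day 2 and 30.2 to 47 at day 6. Their part in the results was not tested. The defining markers Ptprc, Cdh5, Myod1, Myog and Alb were at or near 0.

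In the pathway, ATP citrate lyase (Acly) releases acetyl-CoA in the cytosol and malic enzyme (Me1) supplies NADPH. Acetyl-CoA carboxylase (Acaca) makes malonyl-CoA, fatty acid synthase (Fasn) joins these units to palmitate, the elongase Elovl6 lengthens palmitate, and the desaturases Scd1 and Scd2 introduce the double bond of monounsaturated fatty acids. SREBP-1 (Srebf1) and ChREBP (Mlxipl) are the transcription factors through which insulin and glucose drive these genes, and Thrsp is a small protein of lipogenic tissues whose gene responds to thyroid hormone. Brown fat is known for high rates of fatty acid synthesis beside its capacity to burn fatty acids.

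Promoters of 8 of the 10 genes were found in the RefSeq table for GRCm38.p6, which gives 250 bases before and 50 after each start. Scd1 and Scd2 were not among them. The 4 promoters shown stand for the courses the members took: those of Fasn and Srebf1, which varied together among libraries, that of Elovl6, which fell, and that of Thrsp, which rose most after day 2. Each is written 5′ to 3′ on the strand of the gene, and capitals mark the motifs searched on both strands, which were the E-box CACGTG, the sterol regulatory element core TCACNCCAC, the CCAAT box CCAAT and the nuclear receptor motif AGGTCA.
Fasn, chr11:120824498-120824797, minus strand: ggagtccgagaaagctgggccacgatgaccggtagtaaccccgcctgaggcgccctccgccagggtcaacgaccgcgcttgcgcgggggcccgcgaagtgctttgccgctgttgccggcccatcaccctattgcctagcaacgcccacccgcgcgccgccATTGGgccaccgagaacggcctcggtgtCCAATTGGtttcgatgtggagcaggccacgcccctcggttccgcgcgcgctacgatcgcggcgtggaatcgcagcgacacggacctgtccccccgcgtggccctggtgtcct
Srebf1, most upstream start, chr11:60222532-60222831, minus strand: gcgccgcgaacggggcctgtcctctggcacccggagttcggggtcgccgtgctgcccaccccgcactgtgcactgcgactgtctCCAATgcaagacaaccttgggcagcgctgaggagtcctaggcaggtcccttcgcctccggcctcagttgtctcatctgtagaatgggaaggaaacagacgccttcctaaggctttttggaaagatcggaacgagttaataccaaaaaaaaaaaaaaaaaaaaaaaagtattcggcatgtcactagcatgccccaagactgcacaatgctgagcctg
Elovl6, chr3:129532136-129532435, plus strand: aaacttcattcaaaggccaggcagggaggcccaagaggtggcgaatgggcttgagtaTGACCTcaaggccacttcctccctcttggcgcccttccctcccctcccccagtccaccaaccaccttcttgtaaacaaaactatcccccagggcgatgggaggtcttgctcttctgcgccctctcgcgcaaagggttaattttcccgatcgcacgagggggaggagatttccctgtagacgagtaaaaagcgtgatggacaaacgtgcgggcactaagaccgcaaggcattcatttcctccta
Thrsp, chr7:97417501-97417800, minus strand: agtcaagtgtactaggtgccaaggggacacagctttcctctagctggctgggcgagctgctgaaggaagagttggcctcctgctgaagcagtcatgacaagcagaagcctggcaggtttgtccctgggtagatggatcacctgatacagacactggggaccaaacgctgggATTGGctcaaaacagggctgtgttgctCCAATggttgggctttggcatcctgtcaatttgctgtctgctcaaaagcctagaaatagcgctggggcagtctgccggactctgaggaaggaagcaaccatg

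The Fasn promoter held 3 CCAAT boxes, of which those at -62 to -58 and -59 to -55 from the start overlapped. The Thrsp promoter held 2, the Srebf1 promoter shown 1, and the Elovl6 promoter 1 AGGTCA motif on the opposite strand. Srebf1 had further starts, of which that at 60210471 held 1 CCAAT box and that at 60220627 none of the motifs. Which start was in use was not tested. Over the 12 promoters of the 8 genes, CCAAT was found in 7, AGGTCA in 2 and each of the other motifs in 1, both of these in promoters of Mlxipl. Of 32851 promoters of the same length, 37.4% held CCAAT, 16.3% AGGTCA, 7.15% CACGTG and 1.24% TCACNCCAC. A match describes the letters in this window and is not a binding site.

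Levels of different genes were compared as CPM per kilobase of exon. At day 0 Scd2 was the most abundant member, with a mean of 165.4 CPM per kilobase, ahead of Acly with 82.87 and Scd1 with 71.58. Elovl6 (20.59), Me1 (19.79), Fasn (17.15) and Srebf1 (12.93) followed at similar levels, Acaca stood at 4.118 and Thrsp at 0.1561. The differences Scd2 to Acly, Acly to Scd1 and each step from Elovl6 to Srebf1 were below the larger SD of the pair over 12 libraries. Within libraries the order was steadier for some: Scd2 was above Acly in 12 of 12, Acly above Scd1 in 11 and Fasn above Srebf1 in 11. Elovl6 was above Me1 in 6 and Me1 above Fasn in 8. At day 6 Scd1 led with 2218 CPM per kilobase, followed by Scd2 with 904.1, Srebf1 with 97.67, Acly with 80.45, Fasn with 73.56 and Me1 with 55.84, and each step from Srebf1 to Me1 was again below the larger SD. Within libraries of day 6, Srebf1 was above Acly in 10 of 12, Acly above Fasn in 7 and Fasn above Me1 in 6. Thrsp had moved up to 32.15, ahead of Acaca with 11.08 and Elovl6 with 2.566. At day 2 Scd1 was already first at 609 and Elovl6 already down to 2.706. The 10 genes together took 0.136 to 0.403% of a library's counts at day 0, 0.281 to 0.839% at day 2 and 1.15 to 2.30% at day 6.

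**Figure D1:**
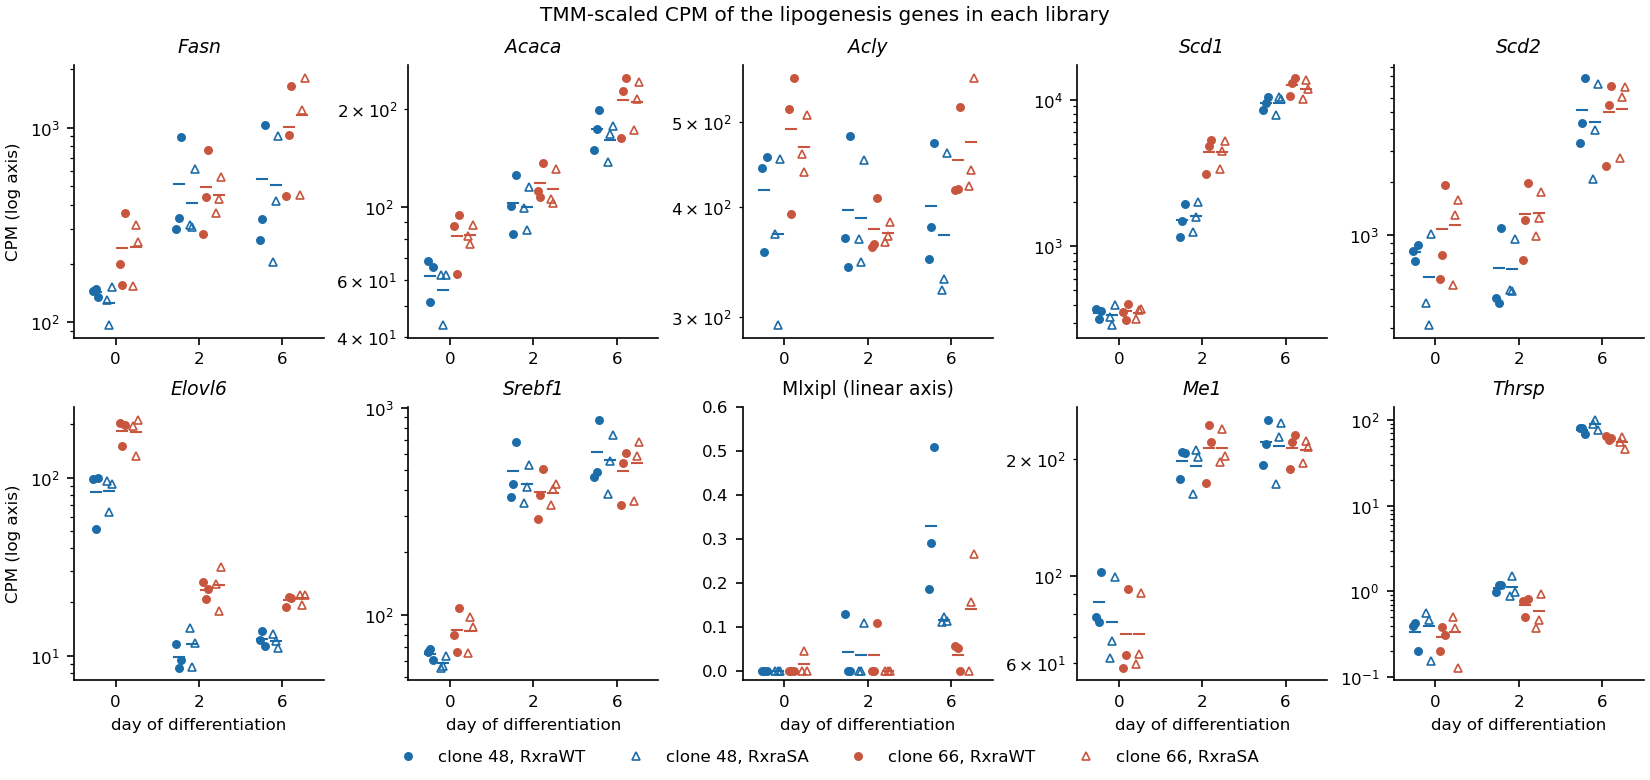
TMM-scaled CPM of the 10 genes (y axis, logarithmic except for Mlxipl) by day of differentiation (x axis), 1 point per library, coloured by clone and shaped by genotype, with a short line at the mean of the 3 libraries. Scd1 climbs from 288.5 to 405.5 CPM at day 0 to 7895 to 14140 at day 6, Elovl6 drops by day 2 and stays low, and Thrsp goes from at most 1.527 CPM to between 45.83 and 100.1 at day 6.

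The first comparison concerned the course of differentiation, averaged over both genotypes and with a term for the clone. From day 0 to day 2, 6 of the 9 tested genes rose (Scd1, Srebf1, Me1, Fasn, Thrsp and Acaca) and Elovl6 fell, while 73.3% of the 16723 genes tested were called, 35.8% higher and 37.5% lower. From day 2 to day 6, 6 rose (Thrsp, Scd2, Scd1, Acaca, Fasn and Srebf1) and none fell, against 62% of all genes called, 31.9% higher and 30.1% lower. Between days 0 and 6, 7 rose and 1 fell, against 68.3% of all genes, 32.9% higher and 35.4% lower. The median log2 fold change of the 9 members was 1.35, 0.68 and 2.08 for these pairs, against -0.015, 0.012 and -0.034 over all genes tested. The pairs share libraries of each day and so are not independent. Since lipogenesis genes of the culture were counted in bulk, more cells with a high level and more RNA per cell cannot be told apart.

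The regulators changed at different times. Srebf1 (ENSMUSG00000020538.15; chr11:60199089-60222581, minus strand, in GRCm38.p6 as annotated by GENCODE M21, as for all positions below) stood at 55.51 to 108 CPM in the 12 libraries of day 0 (median 65.94), at 289.3 to 683 at day 2 (median 407.2) and at 339.2 to 873 at day 6 (median 546.7). All libraries of day 2 were above all of day 0, whereas days 2 and 6 overlapped. The rise to day 2 was 5.84-fold (log2 2.55, SE 0.158, adjusted p = 2.74e-16 with edgeR's quasi-likelihood test, as for all adjusted p below). From day 2 to day 6 it was 1.30-fold (log2 0.37, SE 0.148, adjusted p = 0.029), with a higher value at day 6 in 12 of 12 series of the same clone, genotype and replicate number. This later step was not called in clone 48 alone (log2 0.37, adjusted p = 0.139) or in clone 66 alone (0.41, adjusted p = 0.0912), and it was lost in 8 of 36 fits that each left out 1 library. Srebf1 transcripts that encode the different SREBP-1 isoforms were not separated in the counts, and 1.93% of its exon length overlaps Rai1 on the other strand.

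Mlxipl (ENSMUSG00000005373.13, chr5:135089890-135138382, plus strand) was close to absent. A single count was found in 1 of 12 libraries at day 0, 6 counts in 3 libraries at day 2 and 34 counts in 10 libraries at day 6, with at most 9 in a library. These are 0.00467, 0.0272 and 0.15 CPM over the pooled libraries of a day, where 3 counts would give 0.014, 0.0136 and 0.0133. The day 0 value lay below that floor, and no fold was calculated.

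Thrsp (ENSMUSG00000035686.8, chr7:97412938-97417730, minus strand) had, of the 9 tested members, the largest fold between days 0 and 6, most of it after day 2. It had 3 to 10 counts in each library of day 0 and 7 to 22 at day 2, or 0.1295 to 0.5673 CPM (median 0.3791) and 0.379 to 1.527 CPM (median 0.905). At day 6 it had 1028 to 1629 counts, 45.83 to 100.1 CPM (median 66.62), and no library of day 6 overlapped an earlier one. The step from day 2 to day 6 was 80.1-fold (log2 6.33, SE 0.149, adjusted p = 2.55e-27), 74.7-fold in clone 48 alone and 89.4-fold in clone 66 alone. The first step, 2.54-fold (log2 1.35, SE 0.192, adjusted p = 1.31e-07), rested on few counts and was seen in 11 of 12 series.

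The genes that supply acetyl-CoA and NADPH differed from each other. Acly (ENSMUSG00000020917.17, chr11:100476353-100528000, minus strand) was high from the start, with 293.7 to 560.8 CPM at day 0 (median 448.2), 341.9 to 481 at day 2 (median 368.4) and 322.4 to 559.8 at day 6 (median 421.3), so that all 3 days overlapped. It was not called between any pair of days in the fit of both clones without a block or covariate. The log2 differences were -0.18 (95% interval -0.36 to 0.0049, adjusted p = 0.0742) to day 2 and -0.041 (interval -0.22 to 0.14, adjusted p = 0.693) from day 0 to day 6. Acly was called lower at day 2 than at day 0 in 10 of 49 alternative fits, among them 5 of the 36 without 1 library. With the replicate number of a clone as a block over all days, Acly was lower at day 2 than at day 0 (log2 -0.17, adjusted p = 0.0108). This makes 8 of 9 members against 77.6% of all genes called in that fit. Pairing by number was checked between RxraSA and RxraWT within a day, and not across days. In clone 66 alone Acly was also lower at day 2 (log2 -0.32, adjusted p = 0.0153) and higher at day 6 than at day 2 (0.31, adjusted p = 0.0253), and in clone 48 alone the values were -0.027 and 0.0035.

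Me1 (ENSMUSG00000032418.15, chr9:86581371-86695953, minus strand) rose by day 2 and was not called afterwards. Its level was 58.34 to 102.7 CPM at day 0 (median 72.29), 162.2 to 243.4 at day 2 (median 204.6) and 172 to 251.5 at day 6 (median 219.6). Day 2 was wholly above day 0, by 2.67-fold (log2 1.42, SE 0.0964, adjusted p = 3.17e-15), and the later difference was log2 0.078 (95% interval -0.11 to 0.27, adjusted p = 0.49).

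Acaca (ENSMUSG00000020532.18, chr11:84129672-84401651, plus strand) rose by a similar factor in each step. It stood at 43.45 to 94.32 CPM at day 0 (median 67.02), 82.68 to 136.2 at day 2 (median 106.6) and 137.4 to 248.9 at day 6 (median 175.6), and only days 0 and 2 overlapped. The folds were 1.56 (log2 0.64, SE 0.0927, adjusted p = 1.58e-07) and 1.73 (log2 0.79, SE 0.0926, adjusted p = 3.83e-09), and Acaca was higher in 12 of 12 series at each step.

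Fasn (ENSMUSG00000025153.9, chr11:120805846-120824547, minus strand) rose as well but with a wide spread. At day 0 the 12 libraries held 96.19 to 364.7 CPM (median 152.8), at day 2 282.7 to 894.9 (median 397) and at day 6 203.7 to 1806 (median 675.8), and every pair of days overlapped. The rise to day 2 was 2.64-fold (log2 1.40, SE 0.281, adjusted p = 3.91e-05) and was seen in 12 of 12 series. From day 2 to day 6 it was 1.6-fold (log2 0.68, SE 0.278, adjusted p = 0.0338) and was seen in 9 of 12 series, in which the ratio ran from 0.647 to 3.23. Clone 48 alone gave log2 0.23 for this step (adjusted p = 0.66) and clone 66 alone 1.195 (adjusted p = 0.0118). The call was lost in 10 of 36 fits without 1 library, and over the 36 the log2 value stayed between 0.53 and 0.86 and the adjusted p was at most 0.101, without RxraWT clone 48 replicate 3 of day 6.

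**Figure D2:**
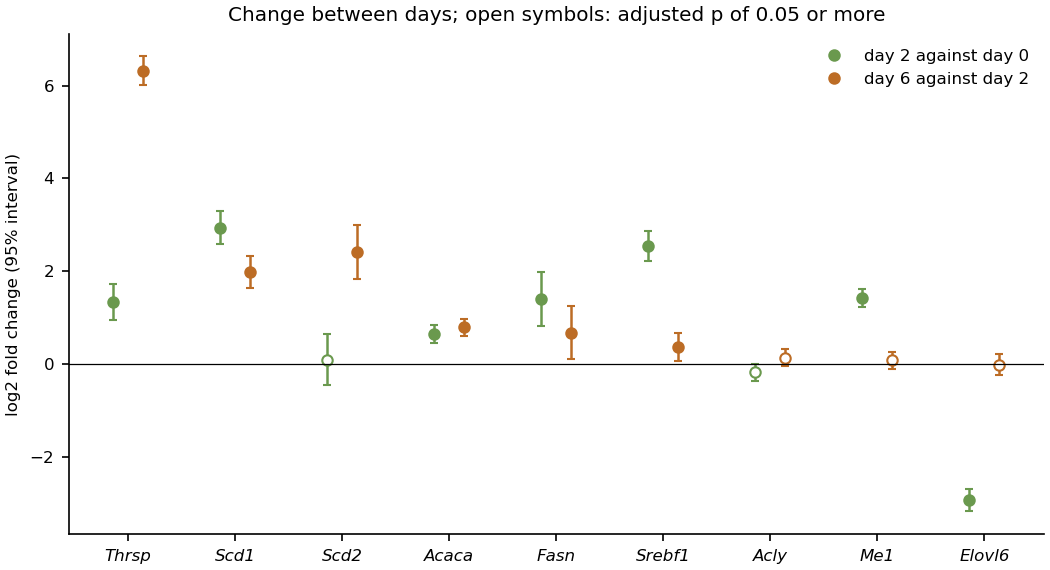
Log2 fold change with its 95% interval (y axis) for the 9 tested genes (x axis), day 2 against day 0 and day 6 against day 2, with filled symbols where the adjusted p was under 0.05. Elovl6 falls by 2.93 in the first step, Thrsp rises by 6.33 in the second, and Acly has open symbols in both.

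In the fit of both clones without a block or covariate, the gene that elongates palmitate was the member called lower, at day 2 and at day 6 against day 0. Elovl6 (ENSMUSG00000041220.10, chr3:129532355-129638495, plus strand) stood at 51.42 to 210.9 CPM at day 0 (median 116), 8.565 to 31.52 at day 2 (median 16.02) and 11.04 to 21.85 at day 6 (median 16.32). No library of day 2 or day 6 reached the lowest of day 0. The level was 7.64-fold lower at day 2 than at day 0 (log2 -2.93, SE 0.119, adjusted p = 1.67e-21), lower in 12 of 12 series, and similar in size in both clones (log2 -2.99 and -2.89). Between days 2 and 6 the log2 difference was -0.012 (95% interval -0.24 to 0.22). Elovl6 shares 34 exon bases, 0.53% of its exon length, with the antisense gene Gm35986, which had 0 to 4 counts in a library. Reads in these bases cannot be told apart in counts made without the strand.

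The desaturases reached the highest levels. Scd1 (ENSMUSG00000037071.3, chr19:44394455-44407879, minus strand) stood at 288.5 to 405.5 CPM at day 0 (median 358.4), 1155 to 5298 at day 2 (median 2570) and 7895 to 14140 at day 6 (median 10460), with no overlap between days. It rose 7.68-fold to day 2 (log2 2.94, SE 0.178, adjusted p = 1.32e-16) and 3.94-fold from day 2 to day 6 (log2 1.98, SE 0.17, adjusted p = 3.09e-12). Its neighbour Scd2 (ENSMUSG00000025203.6, chr19:44293674-44306864, plus strand) rose later. Its libraries held 309.4 to 1935 CPM at day 0 (median 794), 413.8 to 1989 at day 2 (median 974.2) and 2092 to 7808 at day 6 (median 4902), with days 0 and 2 overlapping and day 6 above both.

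Scd2 differed by log2 0.094 between days 0 and 2 (95% interval -0.45 to 0.64, adjusted p = 0.761) and rose 5.36-fold from day 2 to day 6 (log2 2.42, SE 0.284, adjusted p = 3.96e-09). In clone 48 the median ratio of Scd1 to Scd2 per kilobase went from 0.506 (day 0) to 2.87 (day 2) and 2.66 (day 6), and in clone 66 from 0.385 to 3.9 and 2.57. By these medians Scd2 was the more abundant desaturase transcript at day 0 and Scd1 at days 2 and 6. These are paralogs, and read pairs that fitted both were left out of the counts, so both levels are uncertain by that amount.

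The study asked whether loss of the phosphorylated serine of RXRα alters differentiation, and the second comparison set RxraSA against RxraWT on each day. None of the 9 tested members was called on any day, and 0% of all genes were. In this fit, which does not pair the libraries, 139, 162 and 125 of all genes had an unadjusted p under 0.05 at days 0, 2 and 6. No member was among them, and DESeq2 called 0 genes on each day. The members' log2 differences ran from -0.19 to 0.14 at day 0, from -0.25 to 0.15 at day 2 and from -0.11 to 0.080 at day 6, and the adjusted p was 1 for each.

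The levels of the Rxra forms overlapped for every member. Fasn was 265.2 to 1639 CPM in RxraWT at day 6 (median 682.6) and 203.7 to 1806 in RxraSA (median 675.8). Scd1 was 8560 to 14140 (median 10560) and 7895 to 13540 (median 10260). Thrsp was 58.34 to 80.73 (median 66.62) and 45.83 to 100.1 (median 70.34).

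How much of a difference remained possible depended on the gene. The following 95% intervals of the log2 difference at day 6 are from the fit without a block, which does not pair the libraries. They were -0.33 to 0.19 for Acaca, -0.30 to 0.34 for Thrsp, -0.51 to 0.42 for Scd1, -0.43 to 0.42 for Srebf1 and -0.71 to 0.87 for Fasn. For Fasn this interval ran from 38.8% lower to 82.5% higher in RxraSA, in the fit without a block. With RxraSA and RxraWT libraries of one number, clone and day blocked together, the SE of Fasn at day 6 was 0.154 in place of 0.388 (log2 0.055, adjusted p = 1), that of Acaca 0.0539 (log2 -0.064, adjusted p = 1), and no member was called on any day. In that fit 704, 692 and 477 of all genes had an unadjusted p under 0.05 at days 0, 2 and 6. Those included 1 member, at day 0, and 1 gene, no member, was called at day 2. Of 162 comparisons of same-numbered RxraSA and RxraWT libraries over the 9 genes, RxraSA was the higher in 67. These were 17 of 54 at day 0, 24 of 54 at day 2 and 26 of 54 at day 6. They are 18 pairs of libraries counted once for each gene, and the genes vary together, so the comparisons are not independent. The share over all genes was not calculated, and no lean is read from these counts. Within the 6 pairs of day 6 the ratio of RxraSA to RxraWT ran from 0.768 to 1.35 for Fasn and from 0.895 to 1.06 for Acaca, which was higher in RxraSA in 1 of 6 pairs on each day.

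**Figure D3:**
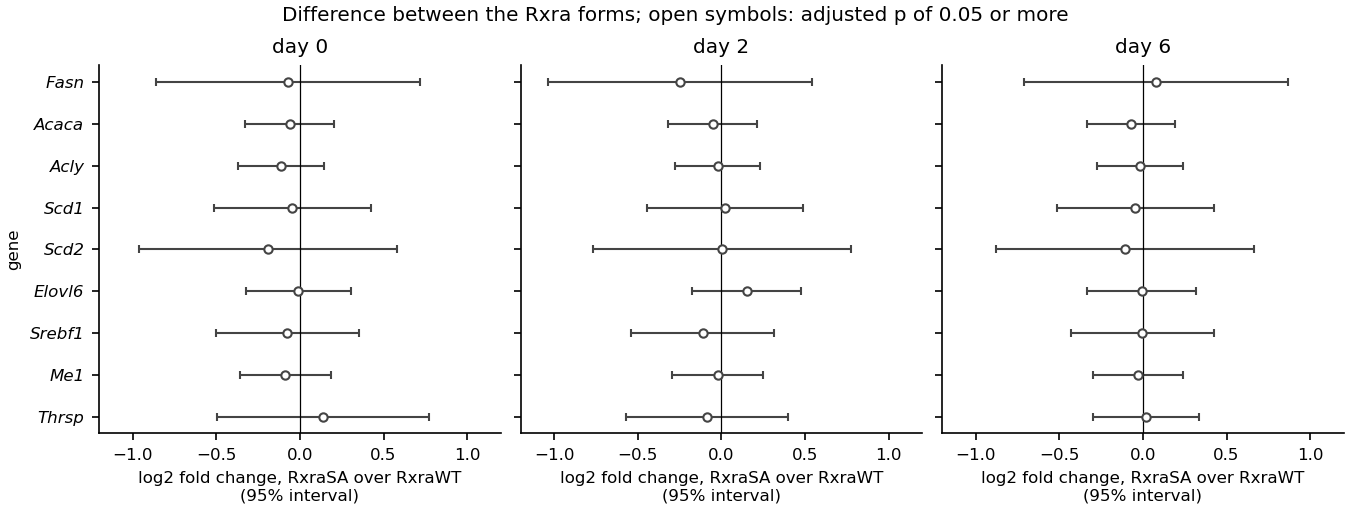
Log2 fold change of RxraSA over RxraWT with its 95% interval (x axis) for the 9 tested genes (y axis) at days 0, 2 and 6. The intervals are from the fit without a block, which does not pair the libraries. All intervals cross 0, and those of Fasn and Scd2 are the widest, with that of Fasn at day 6 running from -0.71 to 0.87.

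The change over time was also compared between the Rxra forms. No member differed in its change from day 0 to 2, 2 to 6 or 0 to 6, and 0% of all genes did, with 144, 153 and 128 genes at an unadjusted p under 0.05 and no member among them. The members' log2 interactions ran from -0.23 to 0.20, from -0.16 to 0.33 and from -0.12 to 0.15. The lowest unadjusted p of a member in this fit was 0.474. With the block within each day, 488, 509 and 408 genes had an unadjusted p under 0.05, and no member did.

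The third comparison was between the clones, with a term for each clone, genotype and day. At day 0 Elovl6 and Acaca were higher in clone 66 than in clone 48, which is 2 of 9 members against 23.7% of all genes. At day 2 Scd1, Elovl6 and Scd2 were higher and Thrsp lower, which is 4 of 9 against 30%. At day 6 Elovl6 was higher and Thrsp lower, which is 2 of 9 against 26.2%. Shares of this size are close to or somewhat above the background, on 9 genes.

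Elovl6 was the member that separated the clones on all days. At day 0 clone 48 had 51.42 to 99.22 CPM (median 93.82) and clone 66 132.7 to 210.9 (median 196.2). At day 2 the ranges were 8.565 to 14.3 (median 10.53) and 17.73 to 31.52 (median 24.39), and at day 6 11.04 to 13.8 (median 12.18) and 18.84 to 21.85 (median 21.32). The clones did not overlap on any day, and the log2 differences were 1.12 (SE 0.158, adjusted p = 2.59e-06), 1.17 (SE 0.164, adjusted p = 2.03e-06) and 0.76 (SE 0.162, adjusted p = 0.000722).

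Scd1 separated the clones at day 2 alone. Clone 48 had 1155, 1478 and 1935 CPM in RxraWT and 1256, 1574 and 2021 in RxraSA, whereas clone 66 had 3120, 4819 and 5298 in RxraWT and 3377, 4453 and 5264 in RxraSA. Every library of clone 66 was above every library of clone 48, by log2 1.48 (SE 0.153, adjusted p = 9.3e-09). At day 0 the log2 difference was 0.049 (95% interval -0.26 to 0.36, adjusted p = 0.866) and at day 6 0.36 (interval 0.055 to 0.67, adjusted p = 0.0758).

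Thrsp was the member lower in clone 66. At day 6 it stood at 68.8 to 100.1 CPM in clone 48 (median 80.6) and 45.83 to 64.43 in clone 66 (median 60.06), a log2 difference of -0.50 (SE 0.156, adjusted p = 0.0162). At day 2, at 7 to 22 counts a library, it was -0.79 (SE 0.242, adjusted p = 0.0138). The first call was lost in 2 of 36 fits without 1 library (without RxraSA clone 48 replicate 2, adjusted p = 0.0522, and without RxraSA clone 66 replicate 3, 0.0658), and the second in 1 (without RxraSA clone 48 replicate 2 of day 2, 0.0582).

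The remaining clone differences were less stable. Acaca at day 0 was 43.45 to 68.55 CPM in clone 48 (median 62.1) and 62.23 to 94.32 in clone 66 (median 84.51), log2 0.48 (SE 0.135, adjusted p = 0.00961), and was lost in 3 of 36 fits without 1 library: without RxraWT clone 48 replicate 2 (adjusted p = 0.0533), RxraSA clone 48 replicate 2 (0.06) or RxraWT clone 66 replicate 3 (0.054). Scd2 at day 2 was 413.8 to 1096 CPM (median 488.9) and 721.3 to 1989 (median 1240), log2 1.03 (SE 0.393, adjusted p = 0.0477), and was lost in 19 of 36, with a log2 difference of 0.81 to 1.33. Fasn at day 0 did not overlap between the clones, at 96.19 to 152.2 CPM and 153.4 to 364.7, but was not called (log2 0.85, SE 0.4, adjusted p = 0.131). Fasn at day 6 was 203.7 to 1035 CPM (median 379.8) and 444.7 to 1806 (median 1079) and was not called (log2 1.03, SE 0.4, adjusted p = 0.056). It was called at day 6 in 7 of 44 alternative fits, among them 5 of the 36 without 1 library. Acaca (log2 0.34, adjusted p = 0.0648), Scd1 and Acly (0.26, adjusted p = 0.122) were not called at day 6 either and were called in 6, 2 and 1 of 36.

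**Figure D4:**
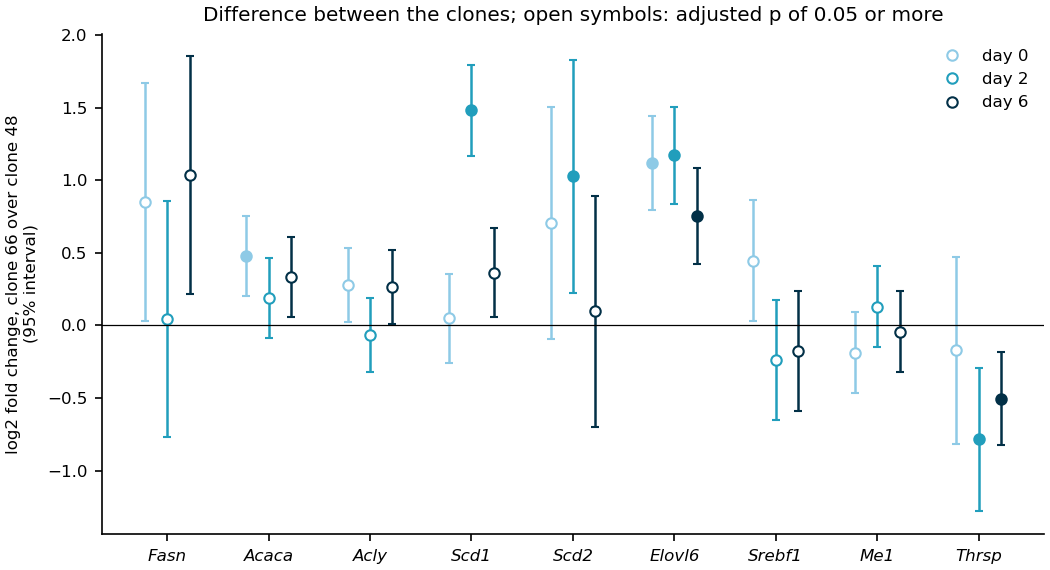
Log2 fold change of clone 66 over clone 48 with its 95% interval (y axis) for the 9 tested genes (x axis) at days 0, 2 and 6, with filled symbols where the adjusted p was under 0.05. Elovl6 is filled and above 0 on all days, Scd1 only at day 2 (1.48), and Thrsp lies at -0.79 and -0.50 at days 2 and 6.

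The course of Scd1 itself differed between the clones, by a test of the interaction of clone and time. Scd1 rose 4.5-fold to day 2 in clone 48 and 12.6-fold in clone 66, each from a fit of that clone alone. In the fit of both clones the log2 difference was 1.44 (SE 0.213, adjusted p = 3.53e-05). From day 2 to day 6 the folds in the single clones were 6.16 and 2.79 and the difference in the joint fit was -1.12 (SE 0.213, adjusted p = 0.000843). It was the only member called at either step, against 6.84% and 6.18% of all genes, and between days 0 and 6 no member was called, against 3.85%. With the replicate block, Srebf1 (log2 -0.65, adjusted p = 0.0141) and Acly (-0.34, adjusted p = 0.026) also differed from day 0 to 2, Scd2 (-0.97, adjusted p = 0.00658) and Acly (0.32, adjusted p = 0.0361) from day 2 to 6, and Srebf1 (-0.59, adjusted p = 0.0369) from day 0 to 6. In those fits 13.4%, 12.4% and 8.19% of all genes were called. The genotype difference did not differ detectably between the clones for any member on any day, and 0% of all genes were called. At an unadjusted p under 0.05 were 283, 214 and 200 genes and no member, and DESeq2 called 0 genes. With the replicate block the genes were 1434, 299 and 469, with 1 member at day 0, and 3 genes, no member, were called at day 0.

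The libraries of 1 clone, genotype and day differed from each other most for Fasn and Scd2. In the 12 such lines the highest of the 3 libraries exceeded the lowest by a median factor of 2.53 for Fasn (at most 4.43), 2.7 for Scd2 (at most 3.44), 1.69 for Srebf1 and 1.31 for Acly. The library numbered 3 was the highest of its line in 10 of 12 lines for Fasn and for Srebf1 and in 12 of 12 for Scd2 and for Acly, but in 3 of 12 for Thrsp and 4 of 12 for Elovl6. At day 6 Fasn had 265.2, 338.5 and 1035 CPM in replicates 1, 2 and 3 of RxraWT clone 48, and 203.7, 421.2 and 902.3 in RxraSA clone 48. In clone 66 it had 444.7, 920.4 and 1639 CPM in RxraWT and 449.4, 1238 and 1806 in RxraSA.

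These deviations were shared among members and moved with the share of counts from mitochondrial genes, which was 1.11 to 3.78% at day 0, 1.25 to 4.86% at day 2 and 1.96 to 9.09% at day 6. Over the 36 libraries, after the mean of each line was removed on the log2 scale, the correlation r with that share was 0.917 for Fasn, 0.875 for Srebf1, 0.834 for Scd2, 0.72 for Acaca, 0.664 for Acly, 0.617 for Scd1, 0.408 for Me1, -0.0153 for Elovl6 and -0.0532 for Thrsp. With the share of counts on ribosomal RNA genes and Lars2, which includes the mitochondrial ribosomal RNAs and was 0.087 to 4.76% at day 0, 0.118 to 3.68% at day 2 and 0.241 to 8.04% at day 6, r was similar: 0.887 for Fasn, 0.843 for Srebf1, 0.833 for Scd2, 0.749 for Acaca, 0.734 for Scd1, 0.679 for Acly, 0.454 for Me1, 0.0261 for Elovl6 and -0.0432 for Thrsp. The part of either share in the results was not tested beyond the mitochondrial covariate. The points share libraries, depth and replicate numbers, and r is given as a description. Among the members themselves Fasn and Srebf1 had the highest such correlation, 0.977, Fasn and Scd2 had 0.901, and Me1 and Thrsp the lowest, -0.492, with a median of 0.583 over 36 pairs.

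**Figure D5:**
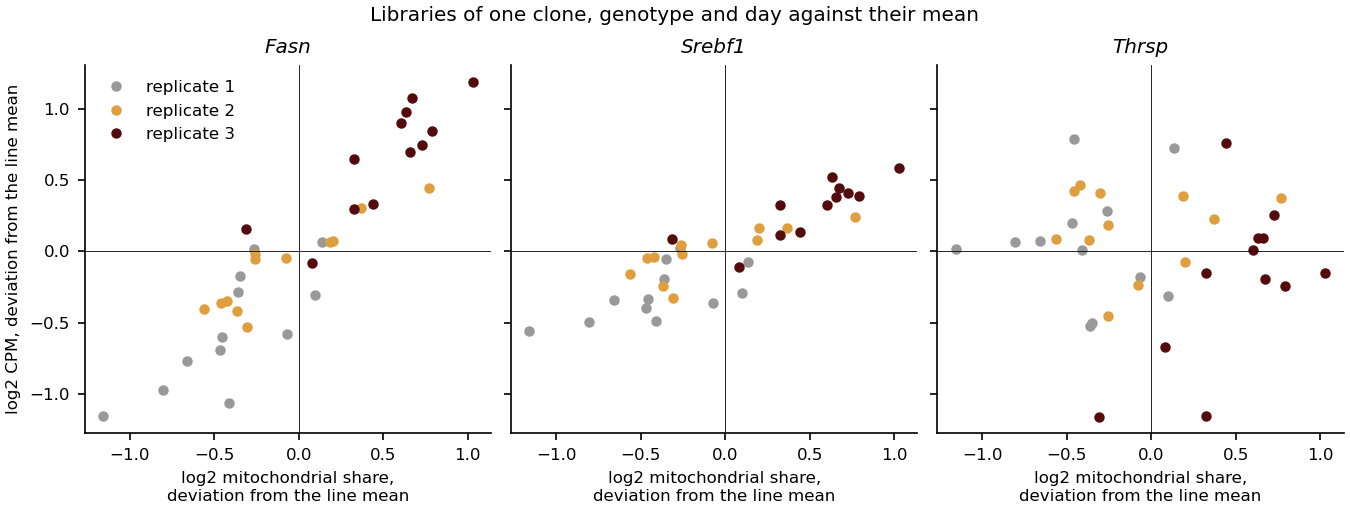
Deviation of the log2 CPM of Fasn, Srebf1 and Thrsp from the mean of the line (y axis) against the deviation of the log2 mitochondrial share (x axis), 1 point per library, coloured by replicate number. Fasn (r = 0.917) and Srebf1 (r = 0.875) follow a rising line and Thrsp (r = -0.0532) does not.

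With the log2 mitochondrial share as a covariate, a fit chosen after the data had been seen, the later steps of Fasn and Srebf1 turned in sign and were not called (Fasn log2 -0.23, adjusted p = 0.242, and Srebf1 -0.015, adjusted p = 0.917, day 6 against day 2). Fasn was still higher than at day 0, at day 2 (0.96, adjusted p = 9.16e-07) and at day 6 (0.73, adjusted p = 0.00109), and so was Srebf1 at day 2 (2.35, adjusted p = 4.87e-20). The rise of Scd2 from day 2 to day 6 was 1.73 (adjusted p = 4.24e-09). Acly was lower at day 2 (-0.26, adjusted p = 0.00203) and at day 6 (-0.30, adjusted p = 0.00629) than at day 0. The clone difference of Scd2 at day 2 was no longer called (0.41, adjusted p = 0.175), whereas Fasn was lower in clone 66 at day 2 (-0.65, adjusted p = 0.00319) and Srebf1 lower at days 2 and 6 (-0.58, adjusted p = 8.69e-05, and -0.53, adjusted p = 0.000288). No member was called between the Rxra forms with the covariate. Since the share itself rises with the days, the covariate and the day cannot be fully told apart.

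Beside the members 57 other genes of lipogenesis were listed by role. Nnt, whose symbol has 2 entries in the annotation, was not counted, and 54 of the rest were tested. From day 0 to day 2, 38 rose and 9 fell (median log2 0.58), from day 2 to day 6, 22 rose and 22 fell (0.082), and from day 0 to day 6, 36 rose and 4 fell (0.74). The shares over all genes tested were, as above, 35.8% higher and 37.5% lower, 31.9% higher and 30.1% lower, and 32.9% higher and 35.4% lower, and nothing particular to this list or its roles is read from its counts. No gene of this list was called between the Rxra forms on any day. Of 6 genes of carbon supply 5 rose to day 2, led by Pcx, the pyruvate carboxylase, from a mean of 98.7 CPM at day 0 to 1492 at day 2 and 1615 at day 6 (log2 3.92 to day 2, adjusted p = 4.24e-19). Aco1, the cytosolic aconitase, rose by log2 2.91 (adjusted p = 1.74e-26), and all 4 genes of malonyl-CoA metabolism rose.

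Of 8 genes of desaturation 2 rose and 6 fell to day 2, and 6 rose and 1 fell from day 2 to day 6. The 2 that rose first were Scd3 (log2 2.79, adjusted p = 3.05e-12) and Cyb5a (1.48, adjusted p = 1.05e-12), which passes electrons to the desaturases. Fads2, which makes polyunsaturated fatty acids, had a mean of 189 CPM at day 0, 56.6 at day 2 and 336 at day 6 (log2 -1.81 and 2.62, adjusted p = 2.18e-14 and 5.18e-18). Fads1 (-1.87, then 2.22, with adjusted p = 3.18e-17 and 1.14e-18) and Fads3 (-2.01, then 2.19, with adjusted p = 1.16e-14 and 3.15e-15) took the same course, whereas Scd3 was higher at each step and rose by 4.33 from day 0 to day 6 (adjusted p = 1.73e-17), from 0.487 to 10.4 CPM.

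The elongation genes split by member. Of 10 tested, 8 rose and 1 fell to day 2, and 4 rose and 6 fell afterwards. Hacd2, a dehydratase of the elongation cycle, went from a mean of 23.7 CPM to 314 and then to 74.7 (log2 3.66 and -2.03, adjusted p = 4.34e-18 and 7.93e-12). Elovl3, an elongase known from brown fat, had at most 4 counts in a library at day 0 and a mean of 6.45 CPM at day 2 and 0.559 at day 6 (log2 -3.39 from day 2 to day 6, adjusted p = 2.83e-15). Elovl4 (-1.92, adjusted p = 1.36e-07) and Elovl7 (-1.63, adjusted p = 9.46e-05) fell from day 2 to day 6, and Elovl1 was lower at day 6 than at day 0 (-0.77, adjusted p = 6.15e-12).

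Of 6 genes of NADPH supply 5 rose and 1 fell to day 2, and 1 rose and 2 fell after it. The gene that fell was Me3, a mitochondrial malic enzyme, from a mean of 5.91 CPM at day 0 to 0.224 at day 2 (log2 -4.71, adjusted p = 1.38e-18), opposite to the member Me1. Of 20 regulators 14 rose and 1 fell to day 2, and 7 rose and 10 fell from day 2 to day 6. Prkaa2, a catalytic subunit of the AMP-activated kinase that inhibits acetyl-CoA carboxylase, rose from a mean of 3.2 CPM at day 2 to 21.8 at day 6 (log2 2.77, adjusted p = 4.64e-19). Mbtps1, a protease that takes part in the release of SREBPs from the membrane, was slightly lower at day 6 than at day 0 (-0.25, adjusted p = 0.00251).

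For each member the gene with the most similar profile was sought among 9717 other genes, as Pearson's r of log2 CPM over the 36 libraries, which share days, clones and depth. These were Vars2 for Fasn (0.960), Atp2a3 for Acaca (0.960), Mprip for Acly (0.821), Slc25a10 for Scd1 (0.984), Plod1 for Scd2 (0.956), Spp1 for Elovl6 (0.9825), Ralgapa2 for Srebf1 (0.990), Hibadh for Me1 (0.975) and Tshr for Thrsp (0.989). After Vars2, Fasn was most like Slc25a22 (0.958), Map4k4 (0.953), Rbm38 (0.936) and Stat5a (0.9315). Across all 36 libraries the members' own correlations ran from -0.891 for Elovl6 and Me1 to 0.952 for Srebf1 and Me1, with 25 of 36 pairs above 0.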

How the data were processed

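RNA was sequenced from brown pre-adipocytes of 2 Rxra-/- clones that re-expressed RxraWT or RxraSA, at days 0, 2 and 6, in 36 libraries. Per the labels and the study's methods, stranded total RNA libraries were sequenced as paired ends, aligned to GRCm38 (mm10) with STAR 2.7.0d and counted on GENCODE M21 genes with featureCounts 1.6.2, without using the strand and without read pairs assigned to several genes or places. The authors deposited these counts with no normalization or filter. Total counts were 11351078 to 24349263, which leaves counting error small for all members but Mlxipl and, before day 6, Thrsp.

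Here, all 16723 genes that passed filterByExpr were scaled by TMM and tested with edgeR 4.0.16 (quasi-likelihood test, in R 4.3.3) in the model of the study's methods, in which genotype and day together form 6 groups and the clone is an additive term. Comparisons of the clones used a term for each clone, genotype and day. Adjustment followed Benjamini and Hochberg over all genes tested, genes with an adjusted p under 0.05 were called, and intervals are 95% intervals of the fit. Log2 CPM had a prior count of 2. The code was tested on simulated counts. Clones, genotypes, days and replicate numbers came from the labels. No replicates were duplicates, as their counts differed with a chi-square of at least 12 per degree of freedom. Same-numbered RxraSA and RxraWT libraries of a clone and day deviated together in each of the 18 pairs (mean r 0.71, lowest 0.176, over 9381 genes). The replicate numbers were therefore taken to pair the libraries within a day. Whether they also pair libraries across days, as the replicate block assumes, was not checked.

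Alternatives were the replicate block, each clone or the compared days alone, clone-specific groups, edgeR's version 4 form, DESeq2 1.42.0, RLE scaling, library size alone, other filters, mitochondrial and ribosomal RNA genes left out, and each library left out. The mitochondrial share as a covariate was chosen as a further alternative once the data were known. The members and the gene lists were chosen with earlier results of these data known. The named genes were the 10 members, the 4 other lipogenesis genes with the largest rise and the 4 with the largest fall among those called per pair of days, and the gene most like each member (for Fasn, 5) where the average log2 CPM was 3 or more. Nnt, which has 2 GENCODE M21 entries, was left out.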

Additional observations from a re-analysis of the deposited data

Results flagged for a closer look

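In 54 sets of 6 libraries of a member, genotype and day, 3 held a library far from the other 5. About 1 in 20 sets would by chance if their libraries were independent and alike. Each set mixes both clones, and the sets share libraries, so this rate is only a rough guide. Acly was at 452.6 CPM in RxraSA clone 48 replicate 3 at day 2, where the next library had 385.1. In RxraWT clone 66 replicate 3 at day 0, Fasn was at 364.7 CPM, with the next library at 198.6, and Scd2 was at 1935 CPM, with the next at 878.1. All 3 are libraries numbered 3.

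The change of Scd1 over time differed between the clones by the interaction test, with a log2 difference of 1.44 between clone 66 and clone 48 from day 0 to day 2 (1.435, adjusted p = 3.53e-05 with edgeR) and of -1.121 from day 2 to day 6 (adjusted p = 0.000843). Clone and library pool coincide and cannot be told apart.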

How the results depend on the processing

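No member was called between RxraSA and RxraWT, in the interaction with time or in that with the clone under any alternative that gave a value. With 1 library left out, members called were 7 to 8, 4 to 6 and 8 of 9 for days 2 against 0, 6 against 2 and 6 against 0, and 1 to 2, 2 to 4 and 1 to 5 between the clones at days 0, 2 and 6. With the replicate block, 3, 3 and 1 members were called for clone by time (days 0 to 2, 2 to 6 and 0 to 6), and 2248, 2082 and 1369 of all genes against 1144, 1033 and 644 without it. Beside these and the call of Acly at day 2, the block changed no call of a member in the comparisons of days, genotypes and their interactions. Its blocks lie within a clone, so the clones could not be compared within a day under it or under the block within each day. With the mitochondrial share as a covariate, 3, 3 and 1 members and 2190, 1944 and 1347 genes were called for clone by time. In that fit the log2 values of Fasn (-0.23), Srebf1 (-0.015) and Pcx (-0.43) from day 2 to day 6 and of Fasn between the clones at day 2 (-0.65) turned in sign. Library size alone moved the median of all genes from -0.015 to -0.27 (day 2 against 0) and from -0.034 to -0.22 (day 6 against 0), the share of calls that were higher from 48.9 to 33.6% and from 48.2 to 34.9%, and turned Mbtps1 to -0.038 at day 2. The same scaling moved that share from 51.2 to 41% between the clones at day 6 and from 54.7 to 43.3% for clone by time from day 0 to day 6. Fasn from day 2 to day 6 was not called with the compared days alone (0.70, adjusted p = 0.0595). The call of Elovl7, day 6 against day 0, was lost with clone-specific groups (-1.47, adjusted p = 0.0877). At day 0, 3 genes with the replicate block and 5 without a filter were called for clone by genotype, none a member. The causes were not tested. The 3 to 22 counts of Thrsp per library before day 6 and the counts of Mlxipl limit what could be seen of these genes.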
